A study of Mus musculus with 30 samples.

Results

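Oxidative phosphorylation is carried out by 5 complexes of the inner mitochondrial membrane, and most of their subunits are encoded in the nucleus. The members described here were all protein-coding genes of the count table whose symbols begin with Ndufa, Ndufb, Ndufc, Ndufs, Ndufv, Uqcr, Cox4, Cox5, Cox6, Cox7, Cox8 or Atp5, together with Sdha, Sdhb, Sdhc and Sdhd. Symbols beginning with Ndufaf were left out because they name assembly factors, and 1 gene, Atp5h at chr11:115415689-115419962 (GRCm38), was left out because it lies on the distal part of chromosome 11, which carries Timp2. This gave 84 of the 49315 genes in the table, with 36 in complex I, 4 in complex II, 8 in complex III, 20 in complex IV and 16 in complex V. Ndufa4 and its paralogue Ndufa4l2 carry complex I symbols but were placed with complex IV, of which the NDUFA4 protein is a subunit.

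Complexes I and II pass electrons from NADH and succinate to ubiquinone, complex III passes them to cytochrome c and complex IV to oxygen. Complexes I, III and IV pump protons while they do so, and complex V, the ATP synthase, uses the resulting gradient to make ATP. In the hippocampus this machinery supplies most of the ATP that neurons spend on ion pumping and on synaptic transmission, and several complex IV subunits have alternative isoforms that are better known from muscle, lung or testis.

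TIMP2, an extracellular inhibitor of matrix metalloproteinases, was absent by design throughout the body of the knockout (KO) mice, which came from the Jackson Laboratory and were compared with wildtype (WT) mice. RNA-seq of dissected hippocampus was available from 13 KO mice, 6 males and 7 females, and from 17 WT mice, 10 males and 7 females, all labelled C57BL/6J. Littermates served as controls according to the study's methods, which give several ages for the study and none for these libraries. The comparison asked whether loss of TIMP2 altered the hippocampal transcriptome, and here it was read for the respiratory chain.

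Total counts per mouse ranged from 18345517 to 41081083 in KO and from 19445246 to 32098386 in WT mice. Timp2 had 158 ± 10.5 CPM (counts scaled to a common library size, SD, n = 13) in KO and 316 ± 39.8 CPM (n = 17) in WT mice, a log2 fold change of -0.999 ± 0.053 (SE, adjusted p = 7.62e-16 by edgeR's quasi-likelihood test), so transcripts of the locus were reduced and still counted. Neuronal markers were present in every mouse, with Snap25 at 2469 ± 102 CPM in KO and 2424 ± 84.4 CPM in WT hippocampi. Of 12 markers of hippocampal neurons, 2 were lower in KO at an unadjusted p under 0.05. These were Prox1 with a log2 fold change of -0.16 (p = 0.0050) and Dsp with -0.21 (p = 0.043, and 0.052 without KO mouse 11) by edgeR's quasi-likelihood test. That threshold called 2.56% of all genes lower, and 0 of the 12 passed adjustment. By sign 6 of the 12 were higher in KO, and the median log2 fold change was -0.0030. WT mouse 6, a male, stood apart from all others in its mitochondrially encoded transcripts, which are described with the per-mouse values. KO mouse 11, a female, had the largest total and the highest choroid plexus transcripts.

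Transcripts of the respiratory chain subunits differed little between genotypes. Of the 84 members, 81 passed the filter on low counts, and at an unadjusted p under 0.05 (the threshold that the study's methods use) 2 were higher in KO, Ndufa10 and Cox6b2, and 0 were lower. Over all 16486 genes tested, the same threshold called 2.47% higher and 2.56% lower in KO, so the members' share was not above that of the transcriptome. After Benjamini-Hochberg adjustment 0 members passed, against 0.0546% of all genes, and the smallest adjusted p of any member was 0.95 by edgeR's quasi-likelihood test. KO and WT ranges overlapped for all 81 members tested. The share of all genes with such an overlap is not given, so this count does not set the members apart. The log2 fold change was positive in 46 members (56.8%) and negative in 35, with a median of 0.0050. Over all genes tested 50.2% were positive, and the median was 0.00011. The members varied together from mouse to mouse, so their signs are not independent of each other.

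The data bounded the differences closely. The 95% interval of the log2 fold change lay within ±0.1, which is a change of up to 7.18%, for 72 of the 81 members. The same held for 38.4% of all genes tested, and for 70.8% of the 8285 genes at least as abundant as Atp5s, the lowest member outside the alternative isoforms. Of the 9 members with a wider interval, 5 were alternative isoforms of complex IV with few counts. Since the libraries came from whole tissue, fewer cells of a type and less RNA per cell cannot be told apart.

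**Figure D1:**
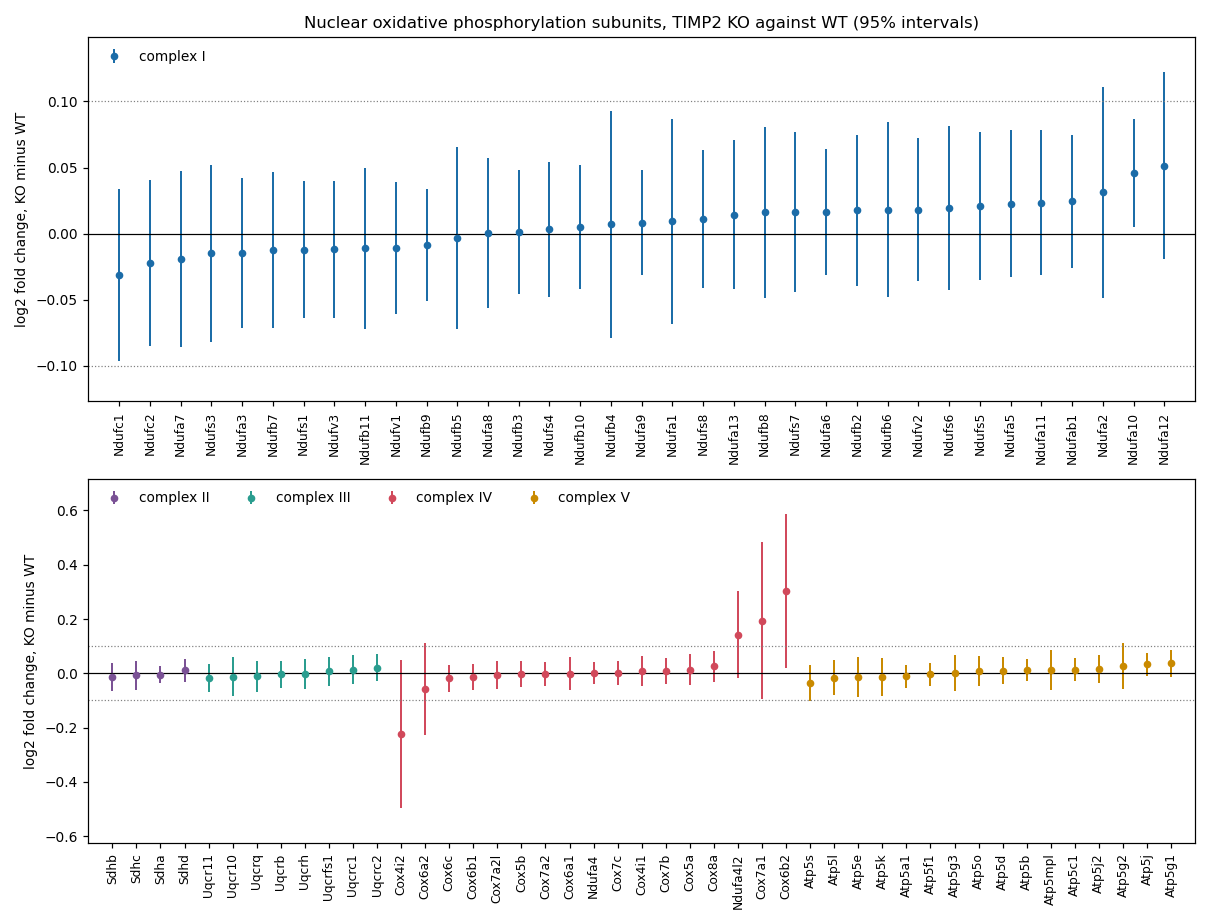
Log2 fold change (KO minus WT) of 80 of the 81 members tested, by complex and ordered by value within each; points are edgeR estimates, bars 95% intervals, and dotted lines mark ±0.1. Outside the alternative isoforms of complex IV all estimates lie between -0.036 and 0.051, and the vertical scales of the panels differ.

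In complex I, the NADH dehydrogenase, 24 of 36 members had a positive and 12 a negative log2 fold change, with a median of 0.0078. Ndufa10 (ENSMUSG00000026260, chr1:92439010-92473860), an accessory subunit related to deoxyribonucleoside kinases, was the only member of the complex past the unadjusted threshold. Its level ran from 144.7 through a median of 153 to 166 CPM in the KO mice and from 141 through 151.5 to 157 CPM in the WT mice. The upper end of the KO mice lay above all WT mice, while most KO values fell inside the WT range. The log2 fold change was 0.046 ± 0.020 (SE), p = 0.030, adjusted p = 0.95 by edgeR's quasi-likelihood test. With mouse number as a covariate it was 0.038 (p = 0.064), in males alone 0.025 (p = 0.41) and in females alone 0.066 (p = 0.047). With sex and surrogate variables it was 0.042 (p = 0.029), and with limma voom 0.049 (p = 0.013). Ndufa12, another accessory subunit, had the next smallest p of the complex, with a log2 fold change of 0.051 ± 0.035 (p = 0.15).

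The 7 core subunits of complex I, which carry the flavin and the iron-sulfur clusters, had log2 fold changes between -0.015 and 0.018. Ndufv1, the subunit that binds NADH, had 56.4 ± 2.24 CPM per kb of exon in KO (SD, n = 13) and 56.8 ± 2.98 in WT mice (n = 17). Ndufs1, the largest iron-sulfur subunit, had 20.2 ± 0.629 and 20.3 ± 1.18 CPM per kb. In both the difference between genotypes was smaller than the SD of either group. Ndufs3, Ndufs7, Ndufs8 and Ndufv2 had log2 fold changes of -0.015, 0.016, 0.011 and 0.018.

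In complex II, the succinate dehydrogenase that also serves the tricarboxylic acid cycle, the median log2 fold change was -0.0066. Sdha, the flavoprotein, had the smallest spread between mice of all members, with an SD of 0.032 on the log2 CPM scale. Its level was 100.3 ± 2.27 CPM per kb in KO and 100.6 ± 2.29 in WT mice. Sdhb, the iron-sulfur subunit, had a log2 fold change of -0.013, and the membrane anchors Sdhc and Sdhd had -0.0082 and 0.011. All 4 intervals lay within ±0.1.

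In complex III, the cytochrome bc1 complex, 3 of 8 members had a positive log2 fold change, with a median of -0.0035 and 0 past the threshold. The core proteins Uqcrc1 and Uqcrc2 had log2 fold changes of 0.014 and 0.021, and Uqcrfs1, the Rieske iron-sulfur protein, had 0.0080. The 5 small accessory subunits lay between -0.018 (Uqcr11) and -0.0026 (Uqcrh).

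In complex IV, cytochrome c oxidase, the 11 ubiquitous subunits had log2 fold changes from -0.019 (Cox6c) to 0.026 (Cox8a). Cox4i1, the subunit through which ATP regulates the enzyme, had 268.9 ± 12.6 CPM per kb in KO and 267 ± 15.3 in WT mice. Cox5a and Cox5b, further subunits of the shell around the catalytic core, had log2 fold changes of 0.013 and -0.0033. Cox7a2l, which helps to join complexes III and IV into supercomplexes, had -0.0056. All 12 intervals lay within ±0.1.

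In complex V the 5 subunits of the F1 head had log2 fold changes between -0.013 and 0.013. Atp5b, the catalytic beta subunit, had 272 ± 8.02 CPM per kb in KO and 270.1 ± 10.8 in WT mice, and Atp5a1, the alpha subunit, had 268.6 ± 7.16 and 270.7 ± 12.8. Atp5c1, the gamma subunit that turns inside the head, had a log2 fold change of 0.013. Atp5j of the peripheral stalk had the smallest p of the complex, with a log2 fold change of 0.033 ± 0.020 (p = 0.11), and Atp5g1, a c subunit gene at chr11:96068852 onwards, had 0.037 ± 0.025 (p = 0.15). The other members on chromosome 11, Uqcr10 and Uqcrq, had -0.012 and -0.011.

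The alternative isoforms of complex IV were scarce in hippocampus, and their differences were less precise. Cox6b2 (ENSMUSG00000051811, chr7:4751792-4753094), an isoform of subunit 6b best known from testis, had between 14 and 67 counts per mouse. It ran from 0.722 through a median of 1.295 to 1.93 CPM in KO mice and from 0.617 through 0.957 to 1.60 CPM in WT mice. The KO median was higher, and the ranges overlapped over most of their length. The log2 fold change was 0.30 ± 0.14 (SE), p = 0.036, adjusted p = 0.97 by edgeR's quasi-likelihood test. Without KO mouse 11 it was 0.26 (p = 0.074), without WT mouse 6, whose Cox6b2 was the lowest of all mice, 0.27 (p = 0.057), and with sex and surrogate variables 0.16 (p = 0.29). In females alone, in males alone and with limma voom it was 0.24, 0.34 and 0.23, and past the threshold in none of them (p = 0.18, 0.12 and 0.088).

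Ndufa4l2, the hypoxia-responsive paralogue of Ndufa4, ran from 2.08 through 2.35 to 3.17 CPM in KO and from 1.46 through 2.23 to 2.73 CPM in WT mice. Its log2 fold change was 0.14 ± 0.079 (p = 0.082), and without WT mouse 6 it was 0.16 (p = 0.044). Cox4i2, the isoform of subunit 4 known from lung and from pericytes, had a log2 fold change of -0.22 ± 0.13 (p = 0.10). Both genes are known from pericytes, and of 6 pericyte markers 0 passed the threshold, with log2 fold changes from -0.058 to 0.052. Cox6a2, the muscle isoform of subunit 6a that is also known from parvalbumin interneurons, had -0.057 ± 0.083. Cox7b2, Cox8b and Cox8c were not tested, with 2 to 13, 0 to 20 and 0 to 1 counts per mouse.

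Alternative isoforms made up a small share of the transcripts per length of their families in both genotypes. Cox4i2 made up 0.369 ± 0.0907% (SD, n = 13) of subunit 4 transcripts in KO and 0.436 ± 0.108% (n = 17) in WT mice. Cox6b2 made up 0.563 ± 0.179% and 0.461 ± 0.120% of subunit 6b, Cox6a2 1.29 ± 0.202% and 1.35 ± 0.187% of subunit 6a, and Cox7a1 0.996 ± 0.235% and 0.868 ± 0.242% of subunit 7a. In the subunit 7a family Cox7a2 supplied 56.2 ± 0.925% and 56.2 ± 1.39%, and Cox7a2l 42.8 ± 0.995% and 42.9 ± 1.28%. The c subunit of the ATP synthase, which 3 nuclear genes encode with the same mature protein, was supplied by more than 1 gene. Atp5g3 made up 63.1 ± 1.01% in KO and 63.6 ± 2.55% in WT mice, Atp5g2 21.4 ± 0.885% and 21.3 ± 2.48%, and Atp5g1 15.4 ± 0.548% and 15.2 ± 0.505%. The wider WT spread of Atp5g2 came with WT mouse 6, which had the lowest Atp5g2 level of all mice. Without it the WT share of Atp5g2 was 21.8 ± 0.884% (n = 16). These shares rest on the total exon length: with the longest transcript in its place Atp5g1 made up 7.19 ± 0.282% in KO and 7.05 ± 0.261% in WT mice, Atp5g3 71.5 ± 0.968% and 71.8 ± 2.56%, Cox4i2 0.196% and 0.232% of subunit 4, and Cox6b2 0.928% and 0.760% of subunit 6b.

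**Figure D2:**
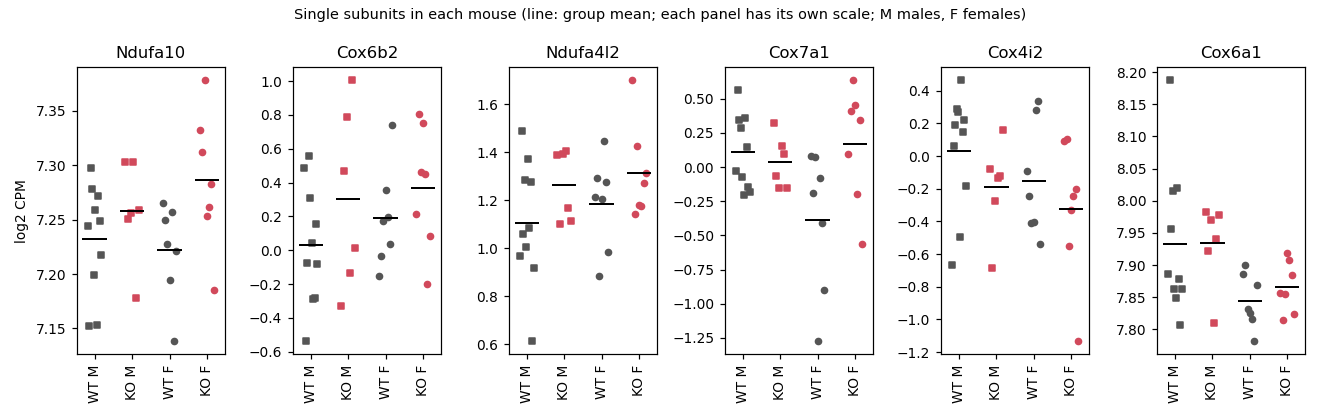
Log2 CPM (with a prior count of 2) of 6 members in each mouse, by genotype and sex; squares are males, circles females, grey WT, red KO, and each panel has its own scale. Points of all groups overlap in each panel.

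Levels per length spanned a 57.4-fold range among the 76 members without the alternative isoforms. Cox8a was highest with 489 ± 26.6 CPM per kb of exon (SD over all 30 mice), followed by Cox6a1 with 340 ± 20.7. Atp5b, Atp5a1 and Cox4i1 came next with 271 ± 9.58, 269.8 ± 10.6 and 268 ± 14.0 CPM per kb, and these 3 did not differ beyond their spread. Atp5s, the coupling factor B of complex V, was lowest with 8.53 ± 0.507. Complex I members lay lower, from 10.1 CPM per kb (Ndufb2) to 148.9 (Ndufb9), and complex III members lay within a 2.56-fold range, from 51.7 (Uqcrc1) to 132.5 (Uqcr10). The median member had 63.8 CPM per kb in KO and 63.7 in WT mice.

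The order rests on the length used. The total exon length of a gene counts bases that most of its transcripts may lack. With the longest transcript in its place, Atp5b became the highest with 599 CPM per kb, ahead of Cox8a with 551 and Cox4i1 with 543, and Ndufb7 became the lowest with 10.4. The rank correlation of the 2 orders across genes was 0.909.

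**Figure D3:**
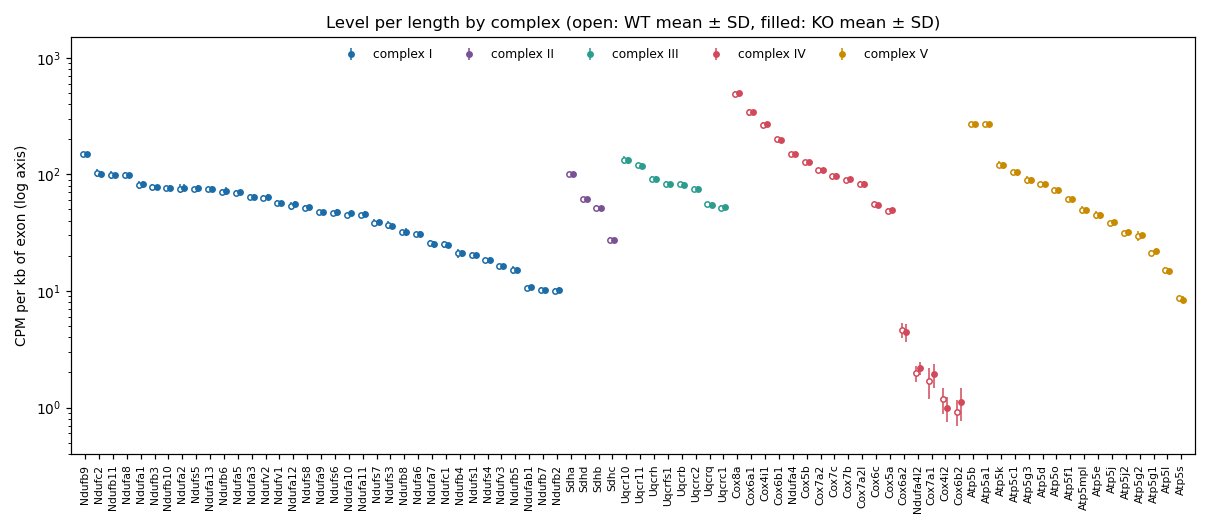
CPM per kb of exon (log axis) of 80 of the 81 members tested, by complex and in order of level; open circles are WT means, filled circles KO means, and bars the SD over mice. KO and WT means lie side by side in every complex, and the 5 alternative isoforms of complex IV lie below all other members, between 1.01 and 4.56.

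The subunits varied together from mouse to mouse. Over the 30 mice the median Pearson correlation of log2 CPM between the 76 members without alternative isoforms was 0.451, over 2850 pairs, of which 88.9% were positive. Over all pairs of genes tested the median was -0.0020. These are descriptions: the points share libraries, scaling and tissue dissection. The median was 0.546 within KO mice and 0.416 within WT mice, mouse 6 included. Over both genotypes without WT mouse 6 it was 0.487, and the median within WT mice without that mouse is not given. Over all 30 mice, mouse 6 included, the median was 0.541 within complex IV and 0.516 within complex III. It was 0.496 within complex II, 0.426 within complex I and 0.419 within complex V.

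Uqcrh, the hinge protein of complex III, had the highest correlation with the mean of the other members over all mice, with r = 0.861, and Cox4i1 had 0.857. Atp5o, a subunit of the peripheral stalk, had 0.853. Without WT mouse 6 these were 0.845, 0.850 and 0.840, and Atp5g3 was highest with 0.893. The lowest over all mice were Atp5g2 with -0.285, Atp5s with -0.211 and Ndufb4, an accessory subunit of complex I, with 0.0049. The values of Atp5g2 and Ndufb4 rested on WT mouse 6, without which they were 0.264 and 0.568, while Atp5s had -0.198 and was the only one of the 76 below 0. For the alternative isoforms tested, the median correlation over pairs with the 76 members ran from -0.11 (Cox6b2) to 0.28 (Cox6a2). The like median between the 76 members was 0.451. These isoforms had between 7 and 161 counts per mouse, and the part of counting noise in their lower values was not tested.

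**Figure D4:**
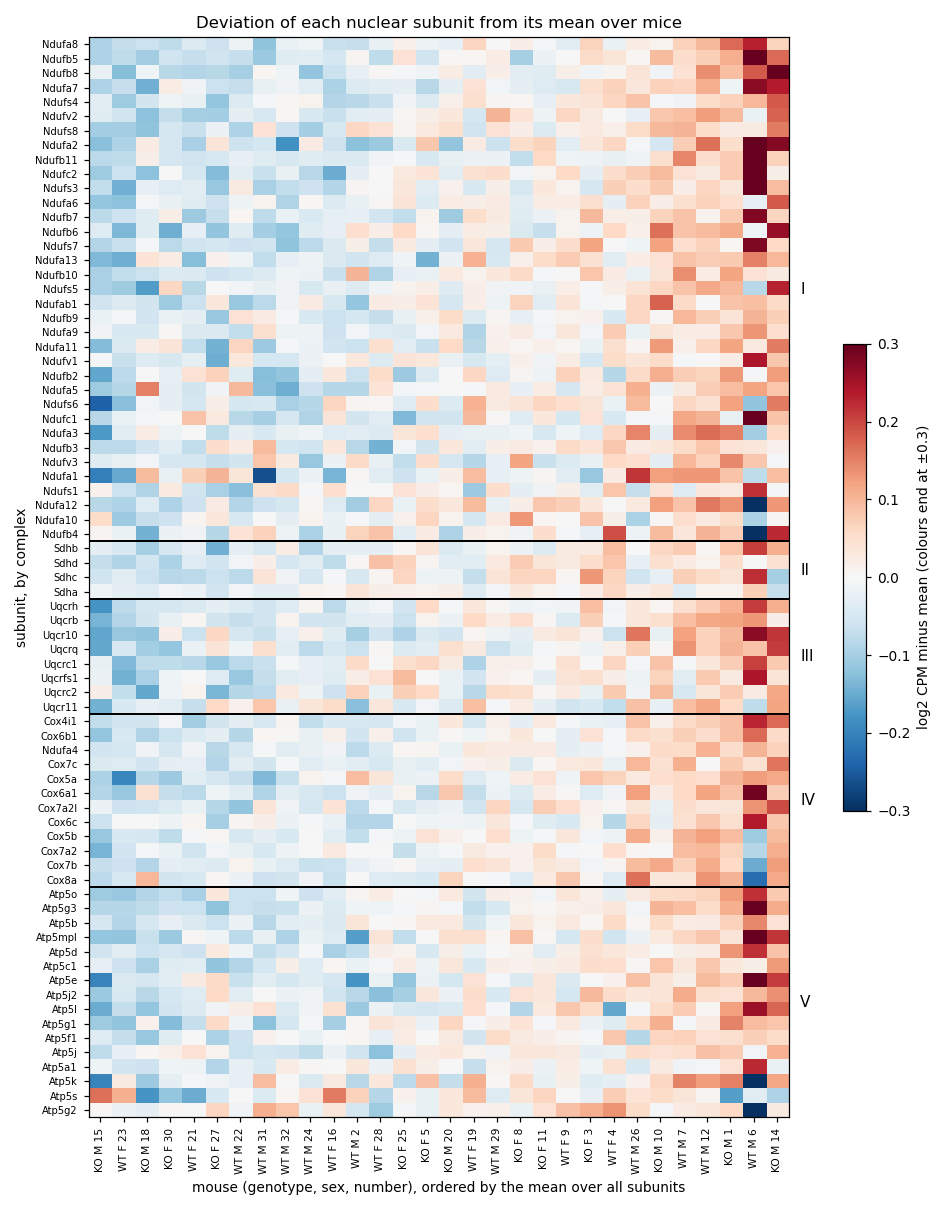
Log2 CPM of each of 75 of the 76 members without alternative isoforms minus its mean over mice (colour, ending at ±0.3), with mice ordered from the lowest to the highest mean over all members and rows grouped by complex. Whole columns shift together, KO and WT mice are mixed along the order, and in WT mouse 6 single members stand far above or far below the rest.

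The mean over these 76 members, as a deviation from the average mouse, ran from -0.078 to 0.104 on the log2 CPM scale in KO mice, with a median of -0.0026, and from -0.071 to 0.093 in WT mice, with a median of -0.018. The highest mouse was KO mouse 14, a male, and the lowest KO mouse 15, also a male, and the WT range lay inside that of the KO mice. KO mouse 14 had the highest level of 20 members and KO mouse 15 the lowest of 14.

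WT mouse 6 was the second highest mouse by this mean, at 0.093, and had the highest level of 37 of the 76 members and the lowest of 6. It was lowest for Atp5g2, which deviated from its mean by -0.65 on the log2 CPM scale, Ndufb4 (-0.52), Ndufa12 (-0.38), Atp5k (-0.32), Cox8a (-0.23) and Cox7b (-0.15), genes that were named after their values were seen. In the same mouse the 13 mitochondrially encoded subunits deviated from their mean by -1.11, while in the other 29 mice the deviation lay between -0.15 and 0.20. Without this mouse, members past the unadjusted threshold were again 2 higher, Ndufa10 and Ndufa4l2, and 0 lower. The median log2 fold change of members was then 0.012 with 62 of 81 positive. The share of all genes positive in that fit is not given, and the members' signs are not independent.

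The mice carry numbers in their labels, and the mean over members moved with them. Of the 13 mice numbered 1 to 14, 11 lay above the average mouse, and of the 17 numbered 15 to 32, 2 did. This cut was chosen after the values were seen, so the counts describe the split and do not test it. The like counts over all genes are not given. The former held 7 KO among 13 mice and the latter 6 among 17, so both genotypes were present on either side, in unequal shares. What the numbers stand for is not given in the labels. The study's methods name the date of isolation or harvest as a batch in a network analysis, and whether the numbers follow that date cannot be told from the labels. Their part in the result was not tested beyond the fit with number as a linear covariate, which would not describe a step at the chosen cut. In that fit 29 of 81 members were positive, with a median log2 fold change of -0.0070, and the share of all genes positive is not given. There 1 member, Cox6b2, passed the unadjusted threshold, higher in KO.

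**Figure D5:**
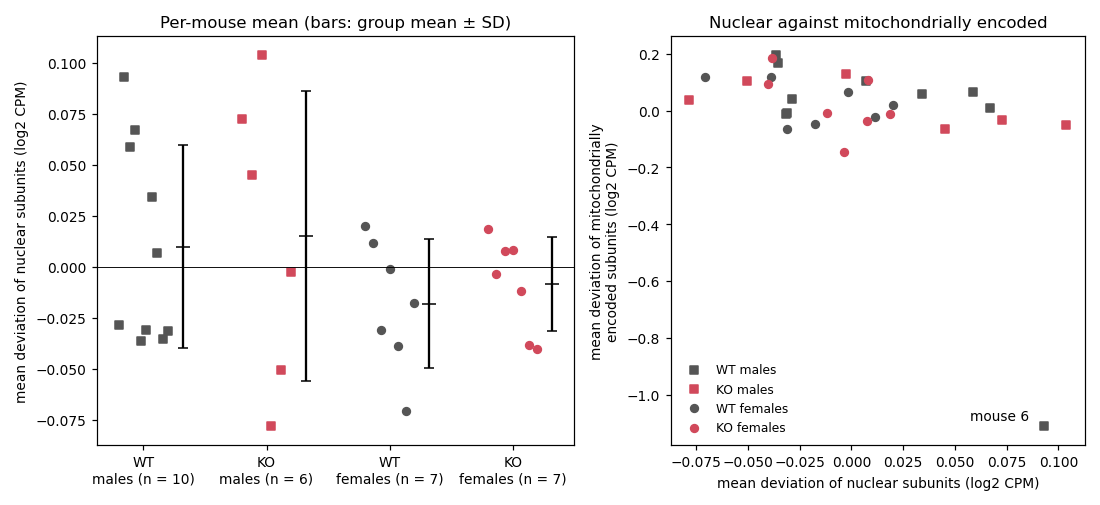
Left, mean deviation of the 76 members from the average mouse (log2 CPM) in each mouse by genotype and sex, with group means ± SD; right, the same mean against that of the 13 mitochondrially encoded subunits. The genotypes overlap in each sex, and mouse 6 lies alone at -1.11 on the vertical axis.

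The promoters of these genes are known for sites of NRF1, of ETS factors such as GABP, and of YY1. RefSeq promoter windows (GRCm38.p6, 250 bases before to 50 after a start) were matched for 68 of the 84 members, with 73 windows in all, 2 members through a RefSeq synonym. The letters CGCATGCG, the core of the palindromic NRF1 motif, were in 9 of the 73 windows (12.3%) and in 1.87% of all 32851 promoter windows. The ETS letters CCGGAAG, on either strand, were in 15 windows (20.6%) against 8.86% of all, and the YY1 letters AAGATGGCG in 7 (9.59%) against 1.40%. TATAAA was in 8 (11.0%) against 13.6%. A match is a description of the sequence, and the motifs did not overlap each other in the stretches shown.

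The stretches shown hold NRF1 or ETS letters upstream of the start and outside every annotated exon, with up to 20 bases on either side, written 5′ to 3′ along the gene's strand with the matched letters in capitals. They show how the shared letters sit in subunits of complexes I, II, III, IV and V, and were not picked by how the members varied across mice. Whether the letters go with the shared variation between mice was not tested.
Atp5e: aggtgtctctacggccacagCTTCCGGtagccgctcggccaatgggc
Atp5l: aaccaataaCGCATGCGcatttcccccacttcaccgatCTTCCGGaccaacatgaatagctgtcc
Cox6a1: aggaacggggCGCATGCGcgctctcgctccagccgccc
Ndufa11: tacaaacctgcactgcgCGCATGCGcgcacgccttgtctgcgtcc
Ndufb6: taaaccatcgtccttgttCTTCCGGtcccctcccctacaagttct
Sdhd: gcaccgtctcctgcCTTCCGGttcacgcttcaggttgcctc
Uqcr11: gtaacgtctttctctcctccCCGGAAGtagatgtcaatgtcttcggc
Uqcrh: actacgaggagtatgccgcaCTTCCGGcc
In GRCm38.p6 they lie at chr2:174464177-174464223 (Atp5e, minus strand), chr9:44920928-44920992 (Atp5l, minus), chr5:115349092-115349129 (Cox6a1, minus), chr17:56717686-56717730 (Ndufa11, plus), chr4:40279627-40279671 (Ndufb6, minus), chr9:50603869-50603909 (Sdhd, minus), chr10:80406861-80406907 (Uqcr11, minus) and chr4:116075072-116075100 (Uqcrh, minus). The stretch of Atp5l holds both motifs, 241 and 212 bases before its start. The windows of Cox6a1 and Uqcr11 also held both, with the motif not shown 16 and 5 bases before the start. The members shown correlated with the mean of the others at r = 0.377 (Uqcr11) to 0.861 (Uqcrh). Atp5g2, whose window also held the NRF1 letters, had -0.285, and 0.264 without WT mouse 6.

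Sex was compared in a fit that held genotype as well. The log2 difference (male minus female) was positive in 69 of the 81 members, with a median of 0.028. Over all genes tested 49.35% were positive, and the median was -0.00070. Because the members varied together from mouse to mouse, their signs are not independent of each other. At an unadjusted p under 0.05, 6 members were higher in males and 0 lower, while the threshold called 4.63% of all genes higher and 5.14% lower in males. After adjustment 0 members passed, with the smallest adjusted p at 0.29 by edgeR's quasi-likelihood test, against 36 of all genes. Cox6a1, the ubiquitous subunit 6a, had the smallest p. It ran from 223.8 through a median of 244 to 291 CPM in males and from 220.0 through 231.6 to 242 CPM in females. Its log2 difference was 0.081 ± 0.028 (SE, p = 0.0059, adjusted p = 0.29).

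The others past the unadjusted threshold were Ndufb9, Ndufb8 and Ndufb11, accessory subunits of the membrane arm of complex I, and Cox4i1 and Cox6c of complex IV, with log2 differences from 0.053 to 0.079. The lowest males lay inside the female range for these genes except Ndufb11, whose lowest male (84.99 CPM) lay just under the lowest female (85.2 CPM). The mean over the 76 members, as a deviation from the average mouse, was 0.012 ± 0.056 (SD) among the 16 males, with a median of 0.0022. Among the 14 females it was -0.013 ± 0.027, with a median of -0.0076. Without KO mouse 14 the count was 5, Ndufb11 being lost with a log2 difference of 0.056 (p = 0.070). Without WT mouse 6 it was 6, with Ndufb11 lost (0.039, p = 0.066) and Cox8a gained (0.059, p = 0.015), and with mouse number as a covariate it was 10.

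All 12 ubiquitous and supercomplex members of complex IV and all 8 of complex III were higher in males by sign, as were 32 of 36 in complex I and 13 of 16 in complex V, against 1 of 4 in complex II. In each of complexes II, III and V, 0 members passed the threshold.

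The effect of genotype differed between the sexes for 1 member at an unadjusted p under 0.05, against 2.57% of all genes, and 0 members or other genes passed after adjustment. This was Cox7a1, the heart and skeletal muscle isoform of subunit 7a. In females it ran from 0.603 through a median of 1.198 to 1.48 CPM in KO and from 0.341 through 0.804 to 0.984 CPM in WT mice. In males it ran from 0.826 through 0.941 to 1.18 CPM in KO and from 0.798 through 0.970 to 1.41 CPM in WT mice. The log2 difference between genotypes in males minus that in females was -0.67 ± 0.27 (SE, p = 0.018, adjusted p = 0.9995 by edgeR's quasi-likelihood test). It was -0.61 (p = 0.029) without WT mouse 6 and -0.61 (p = 0.036) without KO mouse 11. Cox7a1 had between 9 and 54 counts per mouse.

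Few genes that work with the subunits passed the threshold. Of the assembly factors, which build the complexes without staying in them, 0 of 17 tested for complex I, 0 of 4 for complex II, 0 of 6 for complex III, 0 of 23 for complex IV and 0 of 5 for complex V passed the unadjusted threshold. The 13 mitochondrially encoded subunits had a median log2 fold change of 0.010, with 0 past the threshold. This sign rested on WT mouse 6, without which the median was -0.037, with 2 of 13 positive and again 0 past the threshold. Among these, mt-Co2, mt-Co3, mt-Atp6, mt-Atp8 and mt-Nd4l had 2.98, 5.43, 4.27, 1.43 and 3.12 CPM in KO mice against 13810 CPM for mt-Co1. Such low counts are uncertain, and whether near-identical nuclear copies took reads of these genes was not tested.

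Among 15 genes of cytochrome c and coenzyme Q synthesis, 2 were higher in KO at the unadjusted threshold, which called 2.47% of all genes higher. The 15 include Cyc1, the cytochrome c1 of complex III, whose symbol falls outside the rule for members. Its log2 fold change was 0.010 (p = 0.73 by edgeR's quasi-likelihood test). Cycs, the cytochrome c that carries electrons from complex III to IV, had 100.5 ± 4.11 CPM in KO and 96.9 ± 3.94 in WT mice, with a log2 fold change of 0.052 (p = 0.024, adjusted p = 0.95). Coq10b, a coenzyme Q binding protein, had a log2 fold change of 0.095 (p = 0.043). Of 18 genes of the tricarboxylic acid cycle, 1 was higher, Idh3a, the catalytic subunit of isocitrate dehydrogenase, with 0.045 (p = 0.042, and 0.053 without WT mouse 6), and of 11 mitochondrial carrier and creatine kinase genes tested 0 passed.

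Of 21 regulators of mitochondrial biogenesis, 1 was higher and 1 lower. Esrra, a nuclear receptor that activates respiratory genes, had 50.1 ± 3.34 CPM in KO and 46.7 ± 2.501 in WT mice, with a log2 fold change of 0.10 (p = 0.0024, adjusted p = 0.74). Nrf1, the factor that binds the palindrome described above, had 15.1 ± 1.24 and 16.3 ± 1.03 CPM, with a log2 fold change of -0.11 (p = 0.0090, adjusted p = 0.88). Ppargc1a, the coactivator of both factors, had 0.0067. All these adjusted values are from edgeR's quasi-likelihood test over all genes.

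Some markers of other tissue and of neuronal activity differed between genotypes at the unadjusted threshold in the same libraries. Of the choroid plexus markers, 4 of 5 tested were higher in KO, led by Ttr with a log2 fold change of 3.67. Without KO mouse 11 that of Ttr was 2.14, at 26.1 ± 40.6 CPM in 12 KO and 6.07 ± 8.44 CPM in 17 WT mice, and 3 of 5 were higher. Their per-mouse mean deviation ran from -0.82 through a median of -0.287 to 3.06 in KO mice. In WT mice it ran from -1.45 through -0.284 to 0.75, so the medians lay close together. The markers Folr1, Kcnj13, Otx2 and Aqp1 had 0 counts in at least 1 mouse. KO mouse 11, the highest by these markers, had a member mean of 0.0080. The next highest, KO mice 5, 1 and 20 at 1.61, 1.47 and 1.235, had member means of -0.0034, 0.073 and -0.0026. Without KO mouse 11, Ndufa10 alone passed the unadjusted threshold, higher in KO. Of 17 immediate early genes, 10 were higher in KO at the unadjusted threshold, which called 2.47% of all genes higher, and 0 passed adjustment. The per-mouse mean deviation of these 17 genes was 0.35 ± 0.46 in KO and -0.038 ± 0.56 in WT females (SD, n = 7 each). In males it was 0.0076 ± 0.27 in KO (n = 6) and -0.22 ± 0.29 in WT mice (n = 10). The part of either list in the subunits' values was not tested. Markers of red blood cells (4 tested), striated muscle (3 tested) and thalamus and habenula (6 tested) had 0 past the threshold.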

How the data were processed

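The authors trimmed reads with Trimmomatic 0.36, aligned them to GRCm38 with STAR 2.5.2b and counted them with featureCounts of Subread 1.5.2, per the submitters' processing notes. They deposited raw counts per gene and mouse from poly(A)-selected libraries. The counting's strand setting and annotation release are not given in the sources used here. Of the members, 30 overlap other genes. All 30 columns were matched to mice and 0 were left unused, and 259 of 49315 identifiers had no entry in GENCODE.

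From these, edgeR 4.0.16 (R 4.3.3) gave TMM factors, filterByExpr removed genes with few counts, and a quasi-likelihood test was run on genotype alone, with Benjamini-Hochberg adjustment over 16486 genes. CPM used TMM-scaled library sizes. The biological coefficient of variation was 7.52%, so spread between mice sets the precision. Alternatives used DESeq2 1.42.0, limma 3.58.1 and sva 3.50.0 (8 surrogate variables). The scripts were tested on simulated data.

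Named members were those past the unadjusted threshold, the 2 smallest p and the highest and lowest level per complex, catalytic core subunits, and isoform families. The members and lists were chosen with earlier results of these data known. The values of 1 member are not reported here.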

Additional observations from a re-analysis of the deposited data

Results flagged for a closer look

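The effect of genotype on Cox7a1 differed between the sexes by the test of the difference itself, edgeR's interaction term, with -0.67 (males minus females, log2) at an unadjusted p of 0.018. It was 0.58 in females alone (p = 0.020) and -0.092 in males alone (p = 0.56), and it did not pass adjustment over all genes (adjusted p = 0.9995, edgeR's quasi-likelihood test). At an unadjusted p under 0.05 the interaction term called 1 of the 81 members tested, against 2.57% of all genes.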

How the results depend on the processing

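Members past an unadjusted p under 0.05 numbered 2 higher and 0 lower in KO. With sex and surrogate variables, with limma voom and with mouse number as a covariate there was 1 higher. In males alone there were 0 higher and 1 lower, and with no filter on low counts 1 lower, in both cases Cox7b2, which the filter on all mice leaves out. Leaving out WT mouse 6 or KO mouse 11 gave between 1 and 2 higher, and 0 members passed adjustment under any alternative run. The median log2 fold change of members lay between -0.0070 and 0.012. Ndufa10 and Cox6b2 kept a positive sign under all alternatives. Members with a sex difference numbered 6, and 10 with mouse number as a covariate. The interaction count was 1, and 0 when each mouse had to have at least 10 counts, since Cox7a1 is then not tested. Mouse number, the leaving out of single mice and the isoform shares by longest transcript were chosen after seeing the data. No paired analysis was possible because each mouse number occurs once. Depth limits the alternative isoforms of complex IV, and the cause of the shifts between mice was not tested.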
